A study of Mus musculus with 6 samples.

Results

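The CELF and MBNL families of RNA-binding proteins were followed in newborn mouse lenses with and without a conditional deletion of Celf1, to ask whether the paralogues or the antagonists of Celf1 differ in transcript level when Celf1 is lost. The members were taken by gene symbol, Celf1 to Celf6 and Mbnl1 to Mbnl3. Of these 9 genes, 8 were found among the 13931 genes of the RNA-seq table (Celf1 to Celf5 and all 3 Mbnl genes), and Celf6 was not analysed here. Whole lenses were taken at postnatal day 0 (P0), and 3 separate pools of lenses per group, control and Celf1cKO, were sequenced as 1 library each. By their labels, the controls were Celf1lacZKI/+ and so carried a germline knockout allele of Celf1. Celf1cKO mice carried that Celf1lacZKI allele, a Celf1flox allele whose exon 5 is flanked by loxP sites, and the transgene Pax6GFPCre, in which Pax6 regulatory sequence drives Cre from the lens placode onward. Cre in this line is also active in the pancreatic lineage, and the mice were of mixed C57BL/6 and FVB background. In the study's methods, however, the usual controls are Cre-negative Celf1flox mice, so the control genotype is not settled. If the labels hold, both groups shared the knockout allele and Celf1 was not measured against lenses with intact Celf1.

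CELF and MBNL proteins bind RNA in the nucleus and the cytoplasm. CELF proteins recognise GU-rich sequence, and CELF1 is known to shorten the life of many mRNAs, to steer alternative splicing and to affect translation. MBNL proteins recognise YGC-type motifs and set many of the same splicing choices, often in the opposite direction, and the balance between both families is best known from heart and skeletal muscle development and from myotonic dystrophy. In the lens, loss of CELF1 is known to cause cataract. Celf1 and Celf2 form one branch of their family and are broadly expressed, whereas Celf3, Celf4, Celf5 and Celf6 form the other branch and are mostly known from the nervous system.

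Reads counted on genes numbered 40694454 to 44387151 per library, and 3 reads were worth 0.0609 to 0.0807 CPM, the read count scaled to a common library size. Levels are given as log2 CPM, the deposited unit, and a gene was called when the limma test gave an adjusted p under 0.05, the log2 fold-change (Celf1cKO minus control) was beyond 0.58 in size and the mean log2 CPM over all 6 libraries was above 1. In all, 1010 genes were called, 654 higher and 356 lower, so that 64.8% of the calls were higher; when the libraries were instead scaled by their total reads, 1847 genes were called, 89.4% of them higher, and the median log2 fold-change of expressed genes moved by 0.23. The summed CPM of 8 lens fiber markers was 137441 to 164376 in control and 103079 to 114161 in Celf1cKO libraries. Among them, Bfsp2 stood apart in control library 3, with 15219 reads against 98455 and 111953 in control libraries 1 and 2. It had 85350, 71828 and 76037 reads in Celf1cKO libraries 1, 2 and 3. The cause was not tested, and Bfsp2 was named after its values were seen. Summed CPM of 6 lens epithelium markers was 674 to 734 in control and 287 to 660 in Celf1cKO libraries, and 0 of 7 cornea and skin epithelium markers were in the table. In whole-lens RNA, fewer cells of a type and less RNA per cell cannot be told apart.

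The deletion strategy and the likeness of the family members are both visible in sequence. The annotation (GENCODE M21, on GRCm38) holds a coding exon of Celf1 of 49 bases at chr2:91001462-91001510 on the + strand, which is exon 5 of the transcript used here and is numbered 3, 4 or 5 in others. Its length leaves a remainder of 1 when divided by 3, so that its removal shifts the reading frame. Whether the floxed exon 5 is this one depends on the transcript by which it was numbered, which the sources used here do not give. It is shown because Celf2 holds a stretch of equal length at the aligned place in its coding sequence. Capitals mark the 10 bases at which they differ, which leaves 79.6% identity.
Celf1: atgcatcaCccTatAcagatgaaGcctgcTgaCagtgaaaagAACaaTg
Celf2: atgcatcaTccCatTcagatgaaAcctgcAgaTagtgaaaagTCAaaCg

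Over the aligned coding sequences, Celf1 and Celf2 were 74.6% identical at the nucleotide level, whereas Celf1 and the Celf3 to Celf6 branch were 62.8% to 65.4% identical. Mbnl1 and Mbnl2 were 73.1% identical. The longest run of bases shared by Celf1 and Celf2 in any pair of annotated transcripts was 23, and by Mbnl1 and Mbnl2 it was 26. Only uniquely mapped reads were counted. By the paper's description of the libraries, untrimmed reads were longer than these runs. Only a heavily trimmed read could thus lie wholly within such a run and be left out.

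Celf1 (ENSMUSG00000005506; GRCm38 chr2:90940382-91019497, + strand), the deleted gene, was lower in every Celf1cKO library than in every control library. Control libraries 1, 2 and 3 held Celf1 at 9.95, 9.94 and 9.34 log2 CPM, and Celf1cKO libraries 1, 2 and 3 at 8.93, 7.66 and 7.83 log2 CPM. Control library 3 was the lowest of its group and Celf1cKO library 1 the highest of its own, and these libraries were the closest pair between the groups. The log2 fold-change was -1.60 with a standard error of 0.335 and a 95% interval of -2.38 to -0.82 (limma, adjusted p = 0.0269). Celf1cKO lenses thus kept 33.0% of the control level. Transcripts of Celf1 were therefore reduced and not absent, with 9850 to 20954 reads per Celf1cKO library against 25513 to 37948 per control library. Reads from the Celf1lacZKI allele and from a floxed allele after recombination are not separated in these gene totals. The direction held when each library was left out in turn, but the adjusted p was 0.0846, 0.103 and 0.0560 without control library 1, 2 or 3 and 0.0651 and 0.108 without Celf1cKO library 2 or 3. Without Celf1cKO library 1 it was 0.00250, with a log2 fold-change of -1.99.

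**Figure D1:**
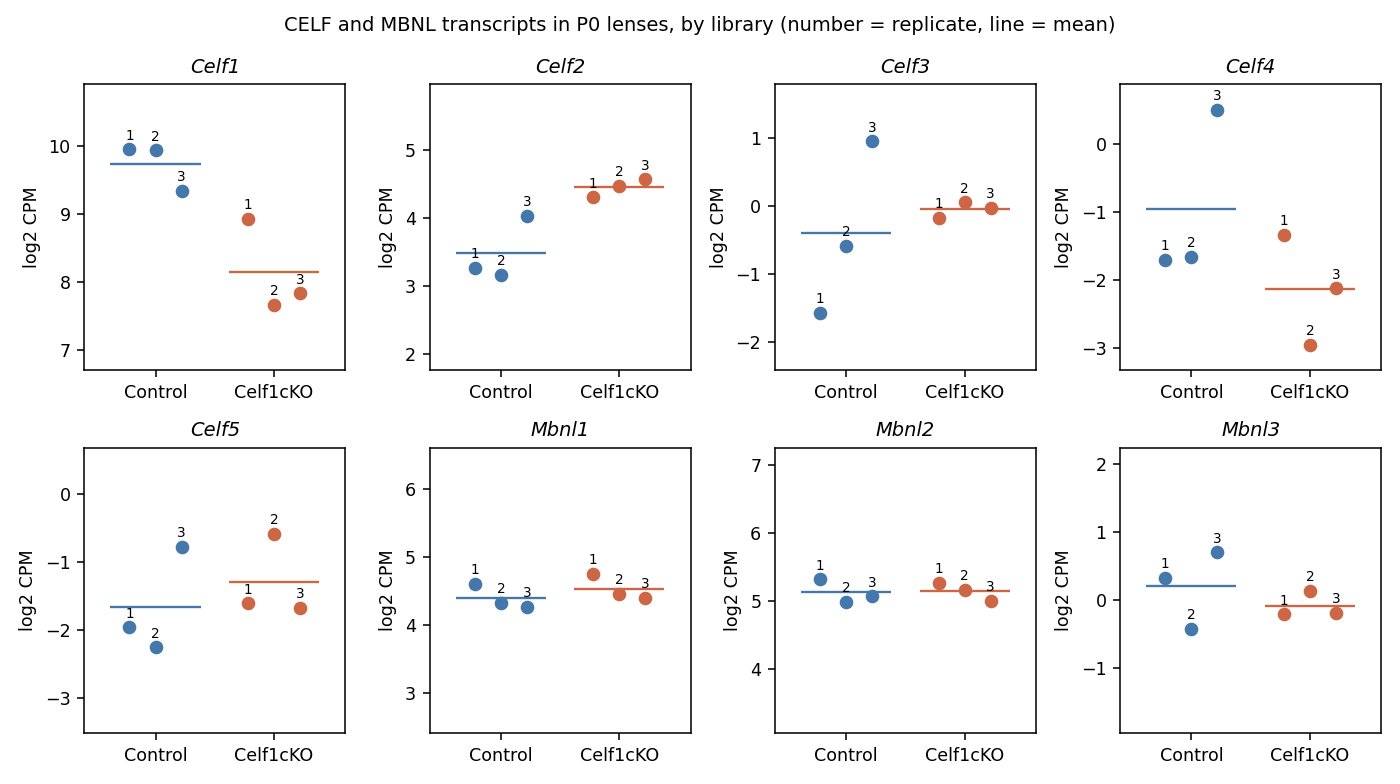
Level of each family member in each library, in log2 CPM, with control libraries in blue and Celf1cKO libraries in orange; digits give the replicate number, lines the group means, and every panel spans the same number of log2 units. Celf1 and Celf2 are the members whose groups do not overlap, and control library 3 stands above the other control libraries for Celf2, Celf3, Celf4 and Celf5.

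Celf2 (ENSMUSG00000002107; GRCm38 chr2:6539694-7509563, - strand), the closest paralogue of Celf1, rose in Celf1cKO lenses. The control libraries, in order of replicate number, were at 3.27, 3.17 and 4.04 log2 CPM, and the Celf1cKO libraries were at 4.31, 4.48 and 4.57 log2 CPM. Every Celf1cKO library was above every control library, and control library 3, the control library with the least Celf1, came nearest to them. Celf2 had a log2 fold-change of 0.96 with a standard error of 0.233 and a 95% interval of 0.42 to 1.51 (limma, adjusted p = 0.0408), a 1.95-fold higher level. Read numbers were 332 to 645 per control library and 849 to 1170 per Celf1cKO library. For single genes, an exact two-sided permutation test of 3 libraries against 3 cannot go below p = 0.1, which was its value for Celf1 and for Celf2. Paired by replicate number, the Celf1cKO library was above its control by 1.04, 1.31 and 0.53 on the log2 scale. The rise held in direction without each library in turn, but the adjusted p was 0.115 and 0.125 without control library 1 or 2 and 0.102 and 0.149 without Celf1cKO library 2 or 3. Without control library 3 or Celf1cKO library 1 it was 0.0380 and 0.0369. With the variance trend left out of the test, the adjusted p was 0.0693 for Celf1 and 0.0812 for Celf2.

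Celf2 is also known from neurons, blood cells and endothelium, and markers of these cells were read beside it. Of 11 neuron and neural retina markers, 8 were in the table. Their summed CPM by replicate number was 19.5, 19.4 and 39.2 for control and 14.3, 7.95 and 17.8 for Celf1cKO, so that the sum was lower in every Celf1cKO library, where Celf2 was higher. Of the 8 markers, Elavl4 and Rbfox3 were called lower. Elavl3, a neuronal ELAV-like gene, went the other way, with 8, 5 and 35 reads in the control libraries and 56, 74 and 83 reads in the Celf1cKO libraries. As for Celf2, its groups did not overlap and control library 3 was the highest control. Its log2 fold-change was 2.13 (limma, adjusted p = 0.0612, and 0.0382 with replicate number added as a block), and its mean log2 CPM of -0.44 was below the level needed for a call. Within the control group, library 3 had both the highest neural sum and the highest Celf2. Among the defining neural markers, Snap25 had 178 reads in control library 3 and 2 to 11 reads in each of the other 5 libraries. Without control library 3, the Celf2 log2 fold-change was 1.24. The summed CPM of 6 endothelium markers was 91.2 to 113 in control and 22.2 to 109 in Celf1cKO libraries, and that of 6 macrophage markers was 4.06 to 10.5 and 5.15 to 8.26. Of 6 blood markers only Alas2 was in the table, at 0.431 to 1.35 CPM in control and 0.0412 to 0.489 CPM in Celf1cKO libraries. The summed CPM of 4 fibroblast and periocular mesenchyme markers was lower in every Celf1cKO library, at 18.1 to 64.0 against 80.2 to 111, and Pdgfra among them was called lower (log2 fold-change -1.54; limma, adjusted p = 0.0497). None of these summed levels was higher in all Celf1cKO libraries than in all control libraries, although Elavl3 singly was; the part of other cell types in the Celf2 values was not tested. Elavl3 and Pdgfra were named after their values were seen. Exons of Celf2 overlap exons of Gm26565, and the sources used here do not state whether reads were counted by strand.

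Across the table, 7.25% of all genes were called, 4.69% higher and 2.56% lower, against 2 of 8 family members, 1 of them the deleted gene. Groups did not overlap for 36.5% of all genes and for the same 2 members. Among the 10529 genes with a mean log2 CPM above 1, 9.59% were called, and 4 members (Celf1, Celf2, Mbnl1 and Mbnl2) were above that level. The median log2 fold-change of the 8 members was 0.08, against -0.04 over all genes tested.

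**Figure D2:**
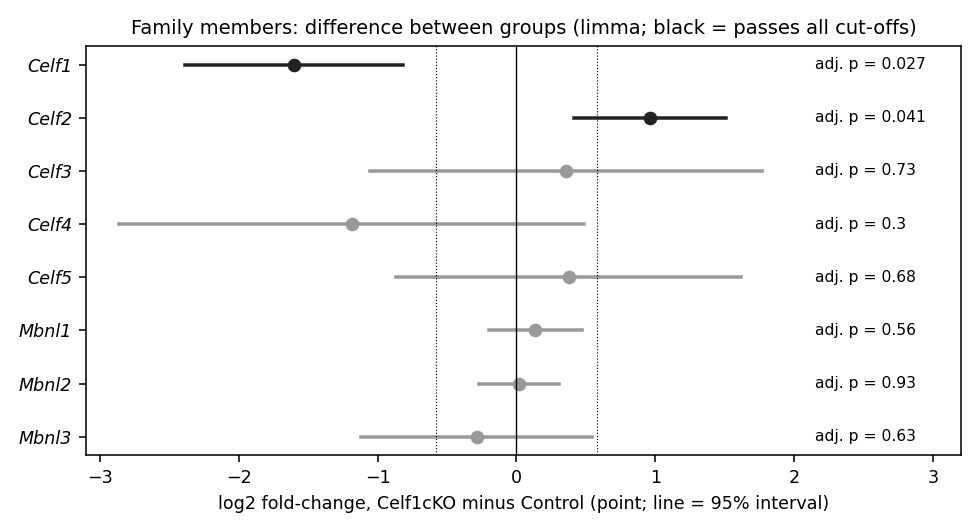
Log2 fold-change of each family member, Celf1cKO minus control, with its 95% interval from limma; dotted lines mark the cut-off of 0.58 on either side, and black marks members that passed all cut-offs. The intervals of Mbnl1 and Mbnl2 lie inside the dotted lines, whereas those of Celf3, Celf4 and Celf5 extend past them.

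Celf3, Celf4 and Celf5, the neural branch of the family, were low in every library and none of them passed the test. Celf3 (ENSMUSG00000028137; GRCm38 chr3:94478295-94492198, + strand) had 11, 23 and 74 reads in control libraries 1, 2 and 3, against 36, 48 and 46 reads in those of Celf1cKO. Its 3 Celf1cKO libraries lay close together, between -0.18 and 0.05 log2 CPM, inside the control range of -1.58 to 0.95 log2 CPM. The log2 fold-change of Celf3 was 0.36, with a 95% interval of -1.05 to 1.76 (limma, adjusted p = 0.730). It was -0.23 without control library 1 and 1.03 without control library 3 (limma, adjusted p = 0.181 in the latter case). Exons of Celf3 overlap those of Riiad1, which had 12 to 23 reads per library.

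Celf4 (ENSMUSG00000024268; GRCm38 chr18:25477632-25754157, - strand) had 10, 10 and 54 reads in the control libraries and 15, 4 and 9 reads in the Celf1cKO libraries, by replicate number. Only control library 3 stood apart, and the other 5 libraries held at most 15 reads each. Celf4 had a log2 fold-change of -1.18, with a 95% interval of -2.86 to 0.49 (limma, adjusted p = 0.304), and without control library 3 it was -0.46. Celf5 (ENSMUSG00000034818; GRCm38 chr10:81459227-81482709, - strand) had 8, 6 and 21 reads in the control libraries and 12, 30 and 13 reads in the Celf1cKO libraries. Here control library 3 and Celf1cKO library 2 were the high libraries of their groups. For Celf5 the log2 fold-change was 0.37, with a 95% interval of -0.87 to 1.62 (limma, adjusted p = 0.676). Without control library 3 it was 0.82 (limma, adjusted p = 0.350). All 3 genes had their highest control value in control library 3, the library with the highest neural marker sum, and the part of neural RNA in these values was not tested. A change of the size of that in Celf2 could not be told from 0 for these genes, since each interval included 0.96 or -0.96 as well as 0. Without control library 3 the standard error was 0.404 for Celf3, against 0.602 with it, and 0.575 for Celf4, against 0.716.

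The MBNL genes, the antagonists in splicing, gave a different picture because Mbnl1 and Mbnl2 were measured precisely. Mbnl1 (ENSMUSG00000027763; GRCm38 chr3:60472830-60629750, + strand) was at 4.61, 4.33 and 4.27 log2 CPM in the control libraries and at 4.75, 4.46 and 4.40 log2 CPM in the Celf1cKO libraries, by replicate number. The groups overlapped, although each Celf1cKO library was above the control library of the same number, by 0.14, 0.13 and 0.13. The log2 fold-change was 0.14, with a 95% interval of -0.20 to 0.47 (limma, adjusted p = 0.561, and 0.351 with replicate number added as a block).

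Mbnl2 (ENSMUSG00000022139; GRCm38 chr14:120275669-120431697, + strand) was at 5.32, 4.99 and 5.07 log2 CPM in the control libraries and at 5.27, 5.16 and 5.005 log2 CPM in the Celf1cKO libraries. The groups covered nearly the same range. The log2 fold-change was 0.02, with a 95% interval of -0.27 to 0.31 (limma, adjusted p = 0.934), and its sign changed with the scaling. The intervals of Mbnl1 and Mbnl2 thus leave out a change as large as that of Celf2 in either direction, within the error these 3 libraries against 3 can show. Exons of Mbnl2 overlap exons of Gm26679.

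Mbnl3 (ENSMUSG00000036109; GRCm38 chrX:51117269-51206532, - strand), the MBNL gene best known from placenta and from myoblasts before they differentiate, had 46, 26 and 62 reads in the control libraries and 35, 51 and 41 reads in the Celf1cKO libraries. The groups of Mbnl3 overlapped. Its log2 fold-change was -0.29, with a 95% interval of -1.12 to 0.54 (limma, adjusted p = 0.626).

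To compare the amounts of different members, CPM was divided by the length of all annotated exons of each gene, which gives RPKM (CPM per kilobase of exon). By this measure Celf1 was the most abundant member in both groups, at 103 ± 23.1 RPKM in control and 36.3 ± 18.7 RPKM in Celf1cKO lenses (SD, n = 3). Mbnl2 followed at 2.93 ± 0.354 RPKM in control and 2.96 ± 0.276 RPKM in Celf1cKO lenses (SD, n = 3), and Mbnl1 at 1.13 ± 0.147 and 1.25 ± 0.167 RPKM (SD, n = 3). Celf2 was at 0.450 ± 0.159 RPKM in control and 0.848 ± 0.0779 RPKM in Celf1cKO lenses (SD, n = 3), below Mbnl1 in every library. The other 4 members had group means of 0.0239 to 0.170 RPKM. In control lenses the libraries of each of the 4 leading members did not overlap those of the next member in the order, although Celf2 and Celf3 nearly touched, at 0.345 and 0.343 RPKM. Celf3, Mbnl3, Celf4 and Celf5 each overlapped their neighbour in the control group. In Celf1cKO lenses Celf5 and Celf4 overlapped each other, and the remaining neighbours did not.

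**Figure D3:**
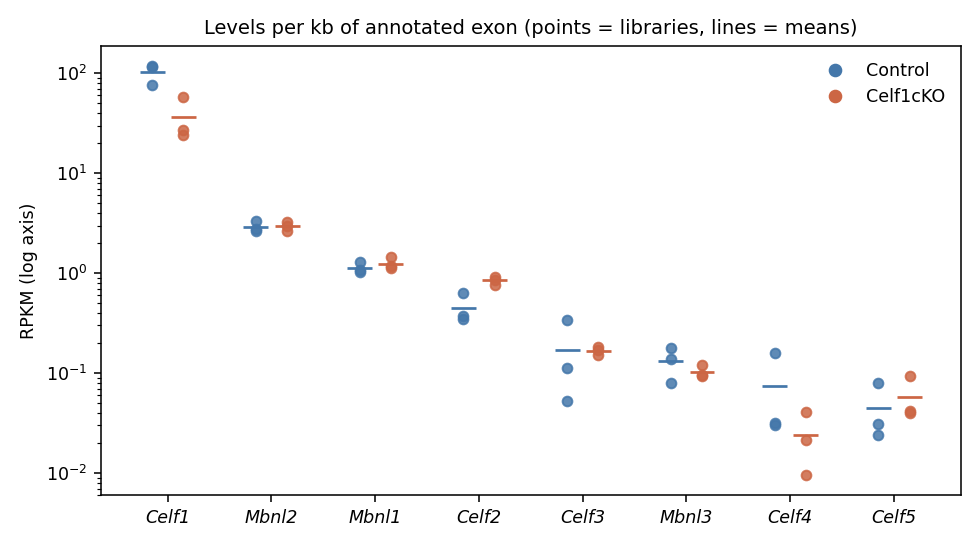
Level of each member per kilobase of annotated exon (RPKM, log axis), ordered by the control mean, with a point for each library and a line for each group mean. Celf1 leads in both groups, and the rise of Celf2 leaves it below Mbnl1.

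The summed level of the 5 CELF genes was 118, 117 and 77.9 RPKM in the control libraries, by replicate number, and 58.8, 25.1 and 28.2 RPKM in the Celf1cKO libraries. Every Celf1cKO library was thus below every control library, as for Celf1 itself. Celf1 made up 99.2% ± 0.655 of this sum in control and 96.6% ± 1.53 in Celf1cKO lenses (SD, n = 3), and Celf2 made up 0.474% ± 0.293 and 2.66% ± 1.18 (SD, n = 3). With the longest annotated transcript as the length of each gene, the shares of Celf2 were 1.27% and 6.85%. The mean level of Celf1 fell by 67.1 RPKM and that of Celf2 rose by 0.398 RPKM, which was 0.593% of the fall, or 1.61% by the longest transcripts. Celf1 exceeded Celf2 by 121-fold to 336-fold in the control libraries and by 27.9-fold to 75.6-fold in the Celf1cKO libraries, or by 44.6-fold to 124-fold and 10.3-fold to 27.8-fold by the longest transcripts. By gene totals, Celf1 therefore remained the main CELF transcript of the Celf1cKO lens by both lengths. These totals include transcripts without exon 5, so the share of intact Celf1 was not measured here.

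The summed MBNL level was 4.77, 3.81 and 4.01 RPKM in the control libraries and 4.75, 4.28 and 3.89 RPKM in the Celf1cKO libraries, and the groups overlapped. Set against the CELF sum, it was 0.0415 ± 0.00942 in control and 0.130 ± 0.0453 in Celf1cKO lenses (SD, n = 3). By library the ratio was 0.0405, 0.0326 and 0.0514 in control and 0.0809, 0.170 and 0.138 in Celf1cKO lenses, without overlap. This shift came mainly with the fall in the CELF sum, since the MBNL sum changed by 0.117 RPKM under the authors' scaling. Under total-read scaling the MBNL sum rose by 0.775 RPKM, with the groups still overlapping. The CELF sum then fell by 56.1 RPKM. The ratio depended on the length used for each gene and was 0.0937 in control and 0.284 in Celf1cKO lenses by the longest transcripts.

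An exact match to the 11-base form of the GU-rich element, which CELF1 is known to bind in mRNA, was searched on the sense strand of the longest annotated 3′ UTR of each member. It was in 0 of the 9, and 4.28% of 13098 annotated genes of the table held it. Among genes whose 3′ UTR length was within a factor of 0.8 either way, the share was 17.2% for Celf1 and 21.6% for Celf2. For the other members in the table it was 2.72% to 9.61%. With shares this low, absence from 9 genes does not show that these families lack the element more than other genes. The search covers only these letters and these transcripts.

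Genes known to act on CELF1 or with it were read in the same fit. They comprise kinases and cyclin partners that phosphorylate CELF1 (Akt, Gsk3, Prkc, Ccnd and Cdk4 genes), the deadenylase gene Parn, the subunits of translation factor eIF2, Calr, Cnbp, and the genes of the myotonic dystrophy locus. Of 19 such genes, all were in the table with a mean log2 CPM above 1; 3 rose, 0 fell and 16 were not called, with a median log2 fold-change of 0.01 against 0.01 over all genes above that level. The share called was 15.8%, against 9.59% of all genes above that level. Parn, whose enzyme shortens poly(A) tails and is recruited by CELF1 to its targets, was at 4.09, 4.22 and 4.03 log2 CPM in the control libraries, by replicate number, and at 4.49, 5.13 and 4.95 log2 CPM in the Celf1cKO libraries. The groups of Parn did not overlap, and the log2 fold-change was 0.74 with a standard error of 0.171 (limma, adjusted p = 0.0357). Eif2s3x, which encodes the gamma subunit of eIF2, rose by 0.74 (standard error 0.112, limma adjusted p = 0.0133). Its partner subunits Eif2s1 and Eif2s2 had log2 fold-changes of 0.08 and 0.01 and were not called. Ccnd2, which encodes a D-type cyclin, rose by 0.69 (standard error 0.133, limma adjusted p = 0.0213), whereas Ccnd1 and Ccnd3 had log2 fold-changes of 0.13 and -0.06 and were not called. Akt1, which encodes a kinase known to phosphorylate CELF1, had a log2 fold-change of -0.45 (limma, adjusted p = 0.0200) and did not reach the cut-off of 0.58. Six5, a homeobox gene beside the myotonic dystrophy locus, had a log2 fold-change of -0.78 (limma, adjusted p = 0.0508, and 0.0316 with replicate number added as a block, which would call it). Eif2s1, Eif2s2, Ccnd1, Ccnd3, Akt1 and Six5 were named after their values were seen. Of these 19 genes, 0 were called without control library 2 and 0 without Celf1cKO library 3, where 1 gene of the whole table was called in either case, and 1 was called without control library 1 or Celf1cKO library 2.

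**Figure D4:**
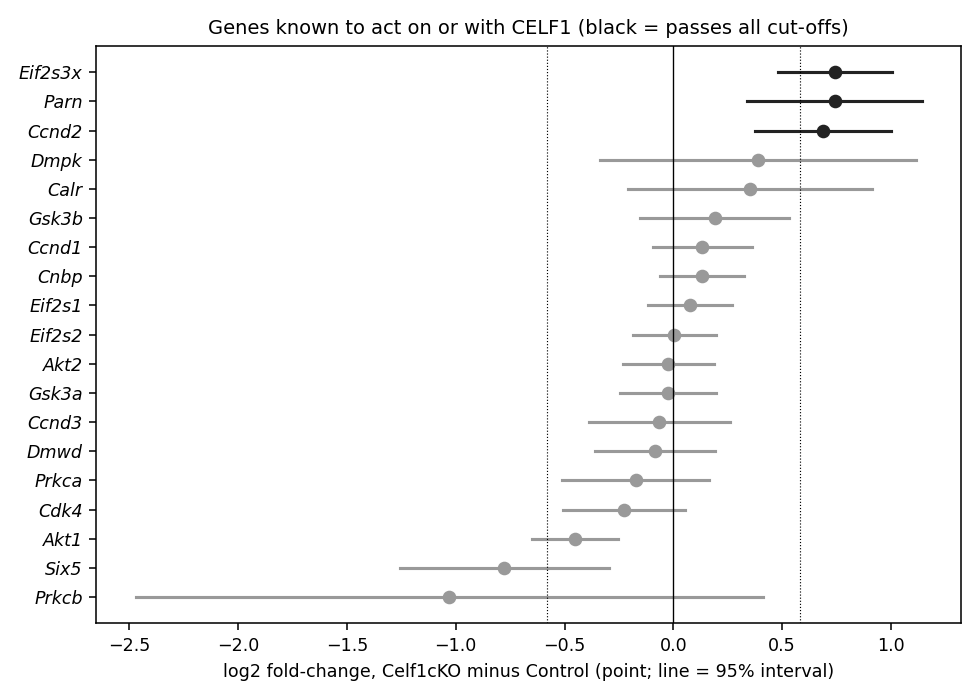
Log2 fold-change of 19 genes known to act on or with CELF1, Celf1cKO minus control, with 95% intervals from limma; dotted lines mark the cut-off of 0.58 and black marks the 3 genes that passed all cut-offs. Most points lie within the dotted lines, and the called genes are all on the higher side.

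Other families of tissue-regulated RNA-binding proteins were read to place the family values. Of 40 such genes, 37 were in the table and 32 had a mean log2 CPM above 1; 6 rose, 3 fell and 28 were not called, and the median log2 fold-change of the 37 was -0.13 against -0.04 over all genes tested. The called genes were 24.3% of the 37, against 7.25% of all genes, and 28.1% of the 32, against 9.59% of all genes above that level. This share depended on scaling, since 5 genes were called by median centring and 5 by quantile normalization. The list was chosen with earlier results of these data known. Elavl4, the neuronal ELAV-like gene that stabilises mRNAs, fell by 1.86 on the log2 scale, from 2.31 ± 0.456 to 0.446 ± 0.660 log2 CPM (SD, n = 3; limma, adjusted p = 0.0269). Igf2bp2, which encodes an mRNA-binding protein that protects transcripts, fell by 0.93 (limma, adjusted p = 0.0127). Rbfox3, the neuronal splicing factor gene, fell by 0.93 (limma, adjusted p = 0.0445), and with replicate number added as a block its adjusted p was 0.0551, which ended the call. Elavl4 and Rbfox3 were also among the neural markers and carried much of their sum, so the lower sum is not separate from their fall. Elavl3, a member of both lists, was higher in every Celf1cKO library and not called. Fmr1, which encodes a protein that represses translation and is lost in fragile X syndrome, rose by 0.81 (limma, adjusted p = 0.0130). The other 5 genes that rose were Ptbp2, Ptbp3, Rbfox2, Pcbp2 and Msi2, with log2 fold-changes of 0.60 to 0.67; they were named after their values were seen. Without control library 2 or Celf1cKO library 3, 0 of the 37 genes were called, and 5 were called without control library 3 and 4 without Celf1cKO library 2.

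Genes whose splicing CELF or MBNL proteins are known to set in muscle and brain were mostly low in the lens. Of 12 listed genes, 10 were in the table, and Tnnt2 and Tnnt3 were not analysed here. Only 4 of the 10, Insr, Dtna, Mapt and Bin1, had a mean log2 CPM above 1. Of the 10, 1 rose and 0 fell, a share of 10% against 7.25% of all genes. The median log2 fold-change of the 10 was 0.41 against -0.04 over all genes tested. Bin1, which encodes a membrane-bending protein and whose splicing in muscle is a known MBNL target, was at 4.998, 4.88 and 5.14 log2 CPM in the control libraries, by replicate number, and at 5.86, 6.31 and 6.21 log2 CPM in the Celf1cKO libraries. The groups of Bin1 did not overlap, and the log2 fold-change was 1.12 with a standard error of 0.137 (limma, adjusted p = 0.00940). The call was lost without control library 2 or Celf1cKO library 3. Gene totals do not show which exons were used, so splicing itself was not measured here.

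Profiles over the 6 libraries were compared with those of the 10528 other genes with a mean log2 CPM above 1, each centred on its mean. The nearest to Celf1 were Gm12408 and Klhl32, with root mean square distances of 0.0696 and 0.138 log2 units, and 5 genes lay within 0.2. Of the 19 genes within 0.2 log2 units of Celf2, Hap1 was at 0.0996 log2 units. Hap1 had a log2 fold-change of 0.98 (limma, adjusted p = 0.0578, and 0.0434 with the block). Because Hap1 was chosen for its likeness to Celf2 over these libraries, these values follow from that choice and are not a separate result. The nearest to Mbnl1 were Tle4 and P4htm and the nearest to Mbnl2 were Taf15 and Uck2, at 0.0301 to 0.0427 log2 units. With 2657 and 3237 genes within 0.2 log2 units of Mbnl1 and Mbnl2, these profiles were shared by many genes that differed little between libraries.

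**Figure D5:**
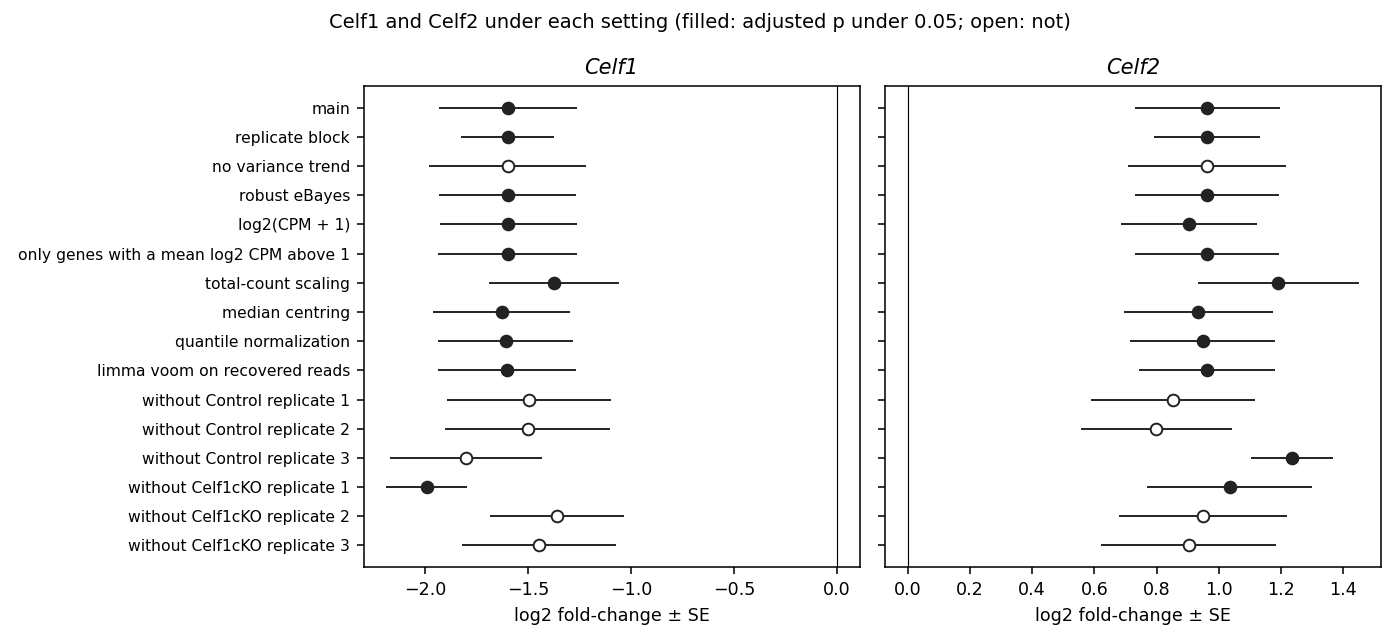
Log2 fold-change of Celf1 and Celf2 with its standard error under the reported setting (top line) and under 15 other settings, 6 of which leave out a library; filled points have an adjusted p under 0.05. All points keep their side of 0, and most open points belong to settings with a library left out.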

How the data were processed

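Total RNA of whole P0 lenses was sequenced in strand-specific, paired-end libraries, and the authors aligned reads with STAR 2.7.8a to GRCm38.p6, counted uniquely mapped reads per gene with featureCounts 2.0.0, left out low genes and deposited log2 CPM per library, with a prior count and library scaling included. The strand setting of the counting is not given in the sources used here. The deposited log2 values were read as they stand. The table also holds the authors' group means and comparison statistics (fold-changes, p-values), which were not used. Because the table holds log2 CPM, a count test was not the main result.

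Groups came from the sample labels. The families and gene lists were chosen with earlier results of these data known. Celf1cKO and control libraries were compared with limma 3.58.1 (R 4.3.3) on log2 CPM with a variance trend, and p-values were adjusted by Benjamini-Hochberg over all 13931 genes; p-values measure the spread between 3 pools per group. Every member was named; from each list, the up to 4 called genes with the largest log2 fold-change in size, and the 2 genes nearest in profile to each member with a mean log2 CPM above 1, were named, and the others given as counts; 1 gene nearest in profile is not reported here. Reads were recovered from the steps of low log2 values (100% whole within 0.05 reads) and tested with limma voom as an alternative. RPKM used exon lengths of GENCODE M21, in which 13928 gene identifiers were found. Coding sequences and 3′ UTRs came from the same annotation, since no protein sequences were used here. The script was tested on simulated data.

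Replicate numbers are shared between the groups in the labels. Deviations of same-numbered libraries from their group means correlated at 0.33, 0.42 and 0.33. Differently numbered libraries were not compared in this way, so these values do not establish a pairing. A fit with replicate number added as a block was run beside the unblocked one. The block is an alternative setting and not a known pairing, as the labels name no shared litter or batch.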

Additional observations from a re-analysis of the deposited data

How the results depend on the processing

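Over 15 other settings, Celf1 stayed lower and Celf2 higher in Celf1cKO lenses. A model with replicate number added as a block called 1255 genes (745 higher, 510 lower), and Celf1 had an adjusted p of 0.0178 and Celf2 of 0.0237; the block ended the call of Rbfox3, added those of Six5 and Hap1, and changed no other call of a gene named here. Without the variance trend, 412 genes were called (299 higher, 113 lower), 0 family members, 1 of the genes acting on or with CELF1 and 4 of the other RNA-binding genes; Celf1 then had a log2 fold-change of -1.60 and Celf2 of 0.96, neither past the threshold. Total-read scaling gave 1847 calls (1651 higher, 196 lower), 3 splicing-regulated genes called and 0.21 for Taf15. It moved Mbnl1 to 0.36 and Mbnl2 to 0.25, and neither was called (limma, adjusted p = 0.103 and 0.204). Median centring and quantile normalization each gave 5 calls among the other RNA-binding genes, and moved Mbnl2 to -0.0087 and -0.0411; quantile normalization moved Mbnl3 to 0.0031 and Uck2 to -0.0215. By the longest transcripts, Celf1 made up 98.2% of the CELF sum in control and 92.0% in Celf1cKO lenses, and the MBNL to CELF ratio was 0.0937 and 0.284. The cause of these shifts was not tested. Celf3 to Celf5 and Mbnl3 have no value when only genes with a mean log2 CPM above 1 were fitted.

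With each library left out in turn, log2 fold-changes ranged from -1.99 to -1.36 for Celf1, from 0.80 to 1.24 for Celf2, from -0.23 to 1.03 for Celf3, from -0.0478 to 0.115 for Mbnl2, from -0.0828 to 0.0563 for Taf15 and from -0.0339 to 0.151 for Uck2. Genes called ranged from 1 to 1879 (1 to 1024 higher, 0 to 855 lower), family members from 0 to 2, genes acting on or with CELF1 from 0 to 3 and other RNA-binding genes from 0 to 10. The lowest counts came without control library 2 or Celf1cKO library 3 and the highest without Celf1cKO library 1. Celf3, Celf4, Celf5 and Mbnl3 had few reads and a wide spread between libraries, and the shares of both in their intervals were not tested; the number of pools limits all tests.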
